A study of Homo sapiens with 9 samples.

Results

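Mitochondrial ribosomal proteins are the nuclear-encoded proteins of the ribosome that works inside mitochondria. They were taken from the footprint tables as every transcript whose symbol begins with MRPL or MRPS followed by a digit, a rule that uses no measured value. It found 71 of the 9221 transcripts in the tables, 45 with an MRPL symbol (large subunit) and 26 with an MRPS symbol (small subunit). Of these, 70 had values for both compounds, and MRPS36 had a value only in the PF846 table. GENCODE version 44 holds 78 coding genes with such symbols, and the other 7 (MRPL12, MRPL23, MRPL30, MRPL58, MRPS17, MRPS18B and MRPS24) were not analysed here.

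The measurements come from ribosome profiling, which sequences the mRNA fragments covered by translating ribosomes. Huh-7 cells, a line from a human hepatocellular carcinoma, received PF8503 (PF-06378503) at 1.5 μM, PF846 (PF-06446846) at 1.5 μM, or 0.5% DMSO as the vehicle, each for 1 hr. There were 3 biological replicates per condition and 9 libraries, and the PF846 sample titles spell that compound's number differently from the series description. Each value below is the authors' mean over the libraries of a condition, in normalized counts (reads divided by a size factor for each library). The tables used give no value for a single library. The p-values that the authors deposited were not used here, so differences are given with no test, interval or replicate check. The depth behind each mean is unknown. By the library names, each condition was sequenced in its own lanes, and an effect of lane cannot be told apart from one of compound. Levels of mRNA were not analysed here, so fewer mRNAs and fewer ribosomes per mRNA cannot be told apart. All 6 hepatocyte markers examined were listed, with vehicle means from 1296 normalized counts for SERPINA1 to 212970 for AFP. Of 4 markers of other cells, VIM was listed at 21660 normalized counts, and PTPRC, HBB and COL1A1 had no row in the tables.

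The mitochondrial ribosome makes the few proteins that mitochondrial DNA encodes, all of them core parts of the respiratory chain and ATP synthase. Its own proteins are translated on cytosolic ribosomes, and most carry an N-terminal targeting presequence rich in arginine and poor in acidic residues, which directs them through the import channels. PF846 and PF8503 act on cytosolic ribosomes, where they stall selected nascent chains, mostly soon after translation starts. The coding starts of the mitochondrial ribosomal proteins therefore encode the presequences that such ribosomes meet early.

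The 6 transcripts shown here are those that lay apart from the other members with either compound. Each line gives the first 30 codons of the canonical coding sequence in GENCODE version 44 (GRCh38), 5′ to 3′, with arginine codons in capitals.
MRPS12: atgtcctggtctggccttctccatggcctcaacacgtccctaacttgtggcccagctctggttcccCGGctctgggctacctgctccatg
MRPS31: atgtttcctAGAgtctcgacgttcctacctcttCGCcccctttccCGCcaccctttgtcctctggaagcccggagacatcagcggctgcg
MRPS27: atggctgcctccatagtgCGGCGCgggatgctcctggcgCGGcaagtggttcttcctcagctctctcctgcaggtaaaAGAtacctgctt
MRPL36: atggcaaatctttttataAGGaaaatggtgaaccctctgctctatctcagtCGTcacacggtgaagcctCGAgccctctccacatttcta
MRPL20: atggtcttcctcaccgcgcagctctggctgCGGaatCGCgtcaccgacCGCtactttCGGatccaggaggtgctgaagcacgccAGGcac
MRPL45: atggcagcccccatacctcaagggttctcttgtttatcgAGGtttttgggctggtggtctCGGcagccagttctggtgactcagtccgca
The stretch of MRPS12 (ENSG00000128626, forward strand) lies in exon 2 at chr19:38931295-38931343 and exon 3 at chr19:38932333-38932373. That of MRPS31 (ENSG00000102738, reverse strand) lies in exon 1 at chr13:40771047-40771136. For MRPS27 (ENSG00000113048, reverse strand) it covers chr5:72320149-72320221 in exon 1 and chr5:72314142-72314158 in exon 2. MRPL36 (ENSG00000171421, reverse strand) holds it in exon 2, chr5:1798846-1798935. In MRPL20 (ENSG00000242485, reverse strand) it runs through exon 1, chr1:1407131-1407217, into exon 2, chr1:1407017-1407019. MRPL45 (ENSG00000278845, forward strand) has it in exons 1 and 2, chr17:38297184-38297249 and chr17:38298449-38298472.

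These coding starts held 5 arginine codons in MRPL20, 4 in MRPS27, 3 in MRPS31, 3 in MRPL36, 2 in MRPL45 and 1 in MRPS12. Over residues 2 to 30 of the encoded proteins, arginine made up a median of 10.3% in the 71 members, against 6.90% over the 9149 proteins of the tables that could be read. Aspartate and glutamate were both missing from this stretch in 37 of the 71 members (52.1%), compared with 12.2% of all proteins. Mean hydropathy on the Kyte-Doolittle scale had a median of 0.19 in the members and -0.37 in all proteins. The median arginine share of the 6 transcripts was 10.3%, the same as that of the other 65, and 4 of the 6 had no acidic residue in the stretch. Cytosolic ribosomal proteins had the same median arginine share, but 18.4% of them lacked acidic residues and their median hydropathy was -0.88. The 74 nuclear-encoded subunits of oxidative phosphorylation were close to the members. Their median arginine share was 13.8%, 48.6% of them lacked acidic residues, and their median hydropathy was 0.16. These traits were thus not particular to the mitochondrial ribosomal proteins.

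Mitochondrial ribosomal protein transcripts as a group stayed close to vehicle with both compounds. The log2 ratio of the mean with compound to the mean with vehicle had a median of -0.0082 over 70 transcripts with PF8503 and of -0.012 over 71 with PF846. Over all transcripts the medians were 0.013 and 0.00086. With PF8503 the lower and upper quartiles of the members were -0.061 and 0.060. With PF846 they were -0.043 and 0.037. All transcripts of the PF8503 table in the members' range of mean signal had an interquartile range of 0.14, and the members had 0.12. With PF846 these ranges were 0.12 and 0.080.

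In summed footprints, the members made up 0.581% of the vehicle signal and 0.579% of the PF8503 signal in the PF8503 table. In the PF846 table they made up 0.588% with vehicle and with PF846 alike. By subunit, with PF8503 the median log2 ratio was -0.016 over 45 large subunit and -0.0064 over 25 small subunit transcripts, and with PF846 it was -0.0092 over 45 and -0.016 over 26. The difference between subunits, large minus small, was thus -0.0093 with PF8503 and 0.0065 with PF846, and was not tested. MRPS30 and MRPS18A carry small subunit symbols but sit in the large subunit of the human mitochondrial ribosome, and MRPS36 is now assigned to the 2-oxoglutarate dehydrogenase complex. Their log2 ratios were -0.016 and 0.11 with PF8503 for MRPS30 and MRPS18A, and -0.064, 0.0050 and -0.10 with PF846 for MRPS30, MRPS18A and MRPS36.

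**Figure D1:**
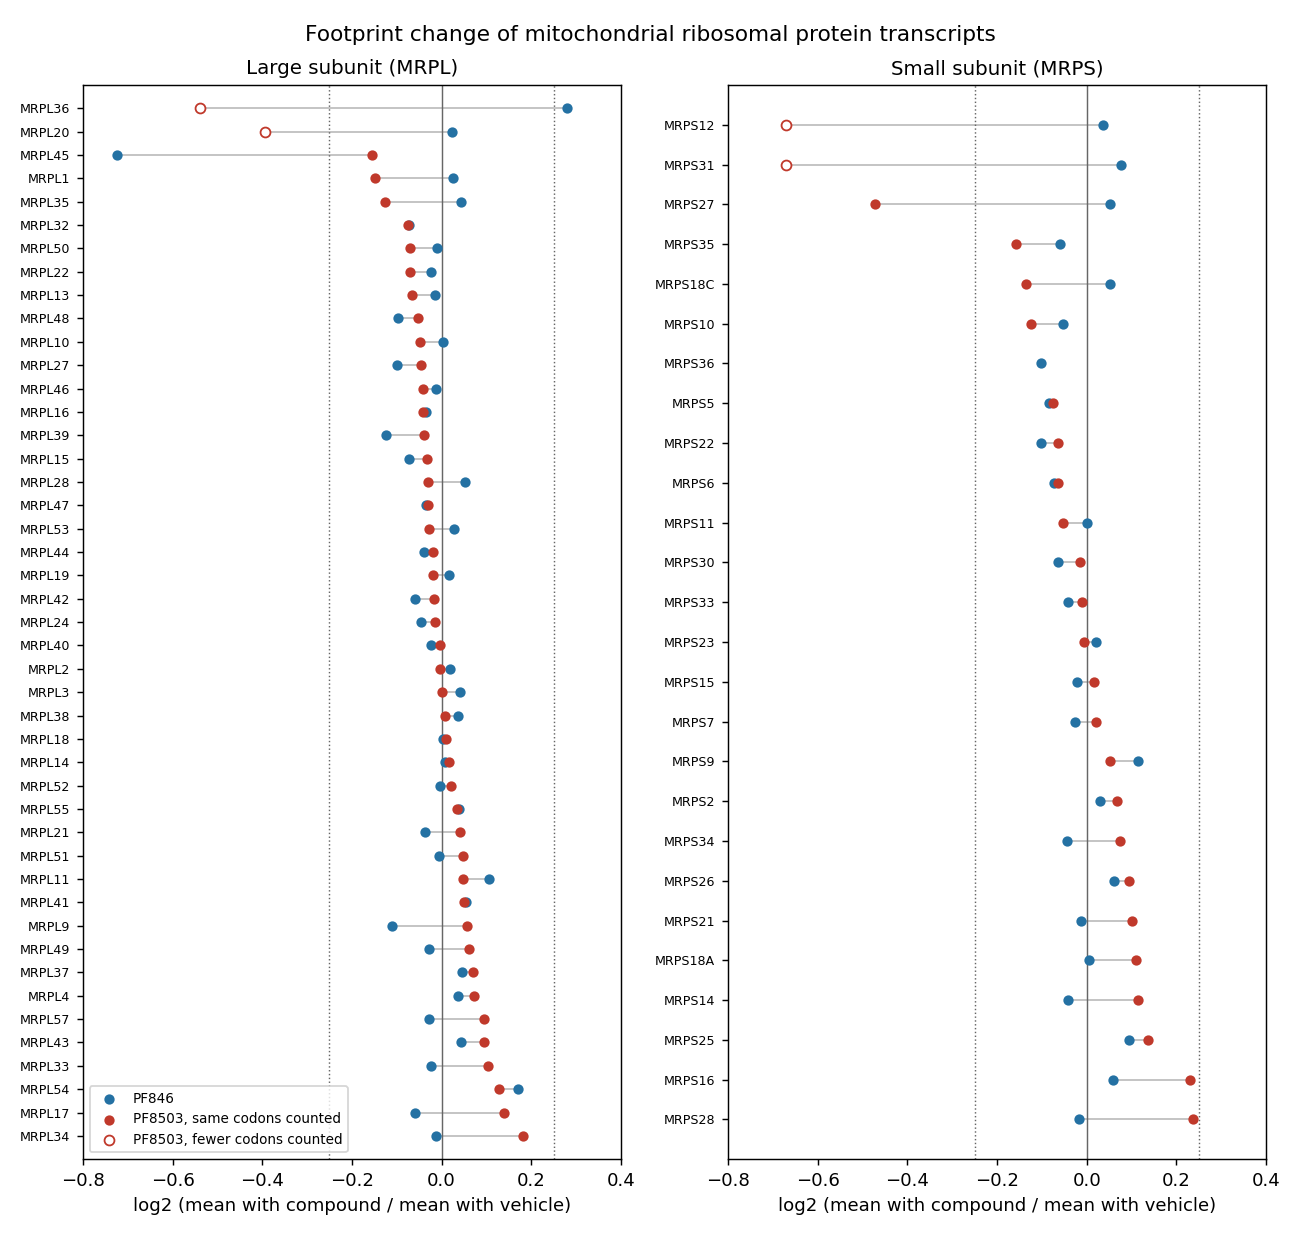
Log2 ratio of the authors' means for every mitochondrial ribosomal protein transcript, by subunit, with PF8503 (red) and PF846 (blue) joined by a line. Open circles mark transcripts for which fewer codons were counted in the PF8503 table. Dotted lines stand at -0.25 and 0.25. MRPS12, MRPS31, MRPS27, MRPL36 and MRPL20 lie below the lower line with PF8503 and MRPL45 with PF846, while most members lie near 0.

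A few members stood well apart from this narrow distribution. A log2 ratio of at least 0.25 in either direction, a 1.19-fold difference, was taken as the limit. With PF8503, 5 of the 70 members were at or below -0.25 and 0 were at or above 0.25. Over all 9157 transcripts of that table, 4.23% were as low and 3.79% as high. Among the 5798 in the members' range of mean signal, these shares were 2.79% and 2.10%. The 5 were MRPS12, MRPS31 and MRPS27 of the small subunit and MRPL36 and MRPL20 of the large subunit. MRPL20, at -0.39, was the nearest to the limit from below, and the next member, MRPS35, was at -0.16. With PF846, MRPL45 alone of the 71 members was as low, where the background was 2.13%, and MRPL36 alone was as high, where it was 1.66%. Among the 7588 transcripts in the members' range of mean signal in that table, 2.23% were as low and 1.46% as high. The next lowest and next highest members were MRPL39 at -0.12 and MRPL54 at 0.17. Most of these 6 members had low signal. Their median mean signal with PF8503 was 261 normalized counts, from 180 for MRPL45 to 1012 for MRPS27, against 855 for the other members. With PF846 these medians were 398 and 766.

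The counts moved with the limit, and the members' share of low values with PF8503 was near the background at 0.15. At that limit PF8503 left 7 members low and 3 high (background 10.1% and 12.1%), the additional ones being MRPS35 and MRPL45 below and MRPS28, MRPS16 and MRPL34 above. At the same limit PF846 left 1 low and 2 high (7.12% and 6.44%), with MRPL54 joining MRPL36. At 0.5, the members that stayed were MRPS12, MRPS31 and MRPL36 with PF8503, all low, where the background was 1.08% low and 0.24% high. For PF846 it was MRPL45, where the background was 0.396% low and 0.0792% high.

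How the reads were counted bears on 4 of these transcripts. In transcripts with a strong stall (a Z score of 2 or more), the authors summed reads 3′ of DMax, their name for the codon of greatest gap between the cumulative read profiles of compound and vehicle. In the others they skipped the first 10 codons. The last 10 were skipped in every transcript. The vehicle libraries are shared between the tables, so the vehicle means stand at a constant ratio of 1.09 where the same codons were counted. Among members in both tables, 66 of 70 kept this ratio within 0.002 on the log2 scale. A region shortened alike in both tables would also keep it, and MRPS36, with a value in a single table, could not be checked. For MRPS12, MRPS31, MRPL36 and MRPL20, or 5.71% of the 70, fewer codons were counted with PF8503, as they were for 1.05% of all transcripts in both tables. None of the 70 had fewer codons counted with PF846, where the share of all transcripts was 0.479%. All 92 transcripts with the shorter region in the PF8503 table had a log2 ratio below 0 there, with a median of -0.58. Counting begins past DMax, where the share of a transcript's reads still to come falls furthest below that of vehicle. Low values of the 4 members with PF8503 are therefore in part fixed by how the region was set.

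MRPS12 encodes the counterpart of bacterial protein S12, which lies at the decoding center of the small subunit. Its authors' means in the PF8503 table were 365 normalized counts with vehicle and 229 with PF8503, a log2 ratio of -0.67. In the PF846 table, where the longer region was counted, they were 509 and 523, a log2 ratio of 0.037. Of the vehicle reads in the longer region, 65.5% fell in the shorter one. Thus MRPS12 was lower with PF8503 in the 3′ part of the transcript and near vehicle with PF846 over the longer part.

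MRPS31, a small subunit protein specific to mitochondria, had means of 277 normalized counts with vehicle and 174 with PF8503, also a log2 ratio of -0.67. With PF846 the means were 272 for vehicle and 286, a log2 ratio of 0.077. Here the PF8503 region kept 93.5% of the vehicle reads. The share of the PF8503 reads that it kept cannot be read from the means.

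MRPL36 encodes the mitochondrial form of L36, a very small protein of the large subunit. Its means were 221 normalized counts with vehicle and 152 with PF8503, a log2 ratio of -0.54, in a region with 91.4% of the vehicle reads. In the PF846 table they were 221 with vehicle and 268 with PF846, a log2 ratio of 0.28. It was the only member past the limit with both compounds, and the directions were opposite, although over different codons.

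MRPL20 encodes the counterpart of bacterial L20, which binds the large subunit rRNA early in assembly. Means of 802 normalized counts with vehicle and 610 with PF8503 gave a log2 ratio of -0.39, over a region with 65.6% of the vehicle reads. With PF846 they were 1119 for vehicle and 1138, a log2 ratio of 0.024.

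MRPS27, a pentatricopeptide repeat protein of the small subunit, was the member past the limit with PF8503 for which the same codons were counted in both tables. Its means were 1176 normalized counts with vehicle and 847 with PF8503, a log2 ratio of -0.47. With PF846 they were 1077 with vehicle and 1116, a log2 ratio of 0.052. Of the 2813 transcripts within a factor of 2 of its mean signal in the PF8503 table, 0.889% had a lower log2 ratio. MRPS27 thus had 0.72 of the vehicle footprints with PF8503 and 1.04 of them with PF846.

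MRPL45 was below vehicle with both compounds, and further below with PF846. It encodes a large subunit protein near the exit of the peptide tunnel, where the mitochondrial ribosome meets the inner membrane. Its means were 174 normalized counts with vehicle and 105 with PF846, a log2 ratio of -0.72. In the PF8503 table they were 190 with vehicle and 170 with PF8503, a log2 ratio of -0.16, and the same codons were counted. Among the 3213 transcripts within a factor of 2 of its mean signal in the PF846 table, 0.249% lay lower. The gap to the next member in that table, MRPL39, was 0.60.

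**Figure D2:**
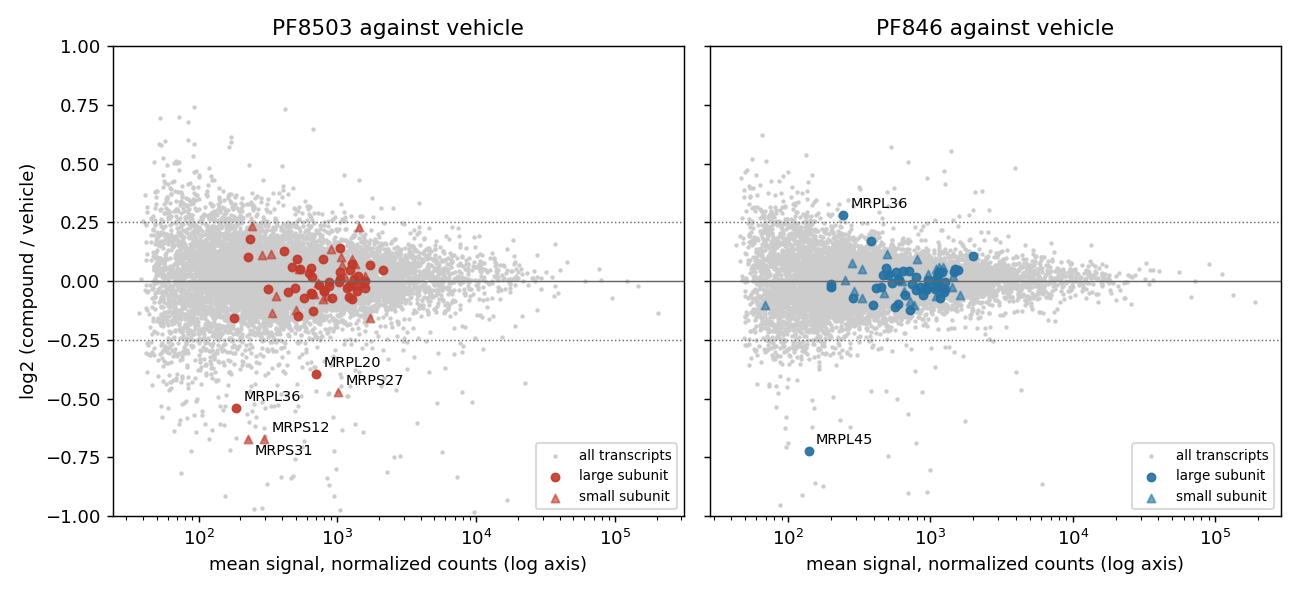
Log2 ratio against mean signal in normalized counts (log axis) for PF8503 (left) and PF846 (right), with all transcripts in grey, large subunit members as circles and small subunit members as triangles. Dotted lines stand at -0.25 and 0.25, members past them are named, and points beyond the vertical axis are not drawn. The named members lie in the tails of the transcripts of like signal, whose spread widens at low signal.

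At the upper end, no member reached the limit with PF8503. MRPS28, the mitochondrial counterpart of part of bacterial S1, had means of 222 normalized counts with vehicle and 261 with PF8503, a log2 ratio of 0.24. MRPS16, whose bacterial counterpart is S16, had 1317 and 1545 and a log2 ratio of 0.23. MRPS16 was the more abundant, and 98.6% of transcripts within a factor of 2 of its mean signal had a lower log2 ratio, against 95.5% for MRPS28. They were followed by MRPL34 at 0.18, MRPL17 at 0.14 and MRPS25 at 0.14. With PF846 these 5 lay at -0.018, 0.059, -0.012, -0.059 and 0.094, in the same order.

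Apart from MRPL36, the highest members with PF846 were MRPL54 at 0.17, MRPS9 at 0.11, MRPL11 at 0.11 and MRPS25 at 0.094. MRPL11, the counterpart of L11 in the GTPase center of the large subunit, had the highest mean signal of the members, and its means were 1930 normalized counts with vehicle and 2076 with PF846. Below 0, MRPL45 was followed by MRPL39 at -0.12, MRPL9 at -0.11, MRPS36 at -0.10 and MRPS22 at -0.10. With PF8503, MRPL54, MRPS9, MRPL11, MRPL39, MRPL9 and MRPS22 lay at 0.13, 0.051, 0.048, -0.040, 0.056 and -0.063. Between the 5 lowest and the 5 highest, the remaining 60 members of the PF8503 table lay from -0.16 to 0.13.

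The compounds were given at the same dose and for the same time, and they can be set against each other directly where the counted codons are the same. The vehicle mean then cancels from the difference between the log2 ratios of PF8503 and PF846. Over the 66 such members the median difference was 0.022, with the middle 50% between -0.039 and 0.053. All 8641 such transcripts had a median of 0.013. By subunit the median was 0.0079 over 43 large subunit and 0.037 over 23 small subunit members.

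Past the limit of 0.25, 1 member was lower with PF8503 than with PF846 and 2 were higher, where 2.59% and 2.79% of all such transcripts were. The first was MRPS27, with a difference of -0.53, at the 0.301 percentile of these transcripts. The others were MRPL45 at 0.57, at the 99.98 percentile, and MRPS28 at 0.25. The largest differences of all were those of MRPL36 (-0.82), MRPS31 (-0.75) and MRPS12 (-0.71), but these and MRPL20 (-0.42) compare different regions. Without single libraries, no interval can be given for any of these differences, and whether the compounds act differently on these transcripts was not tested.

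**Figure D3:**
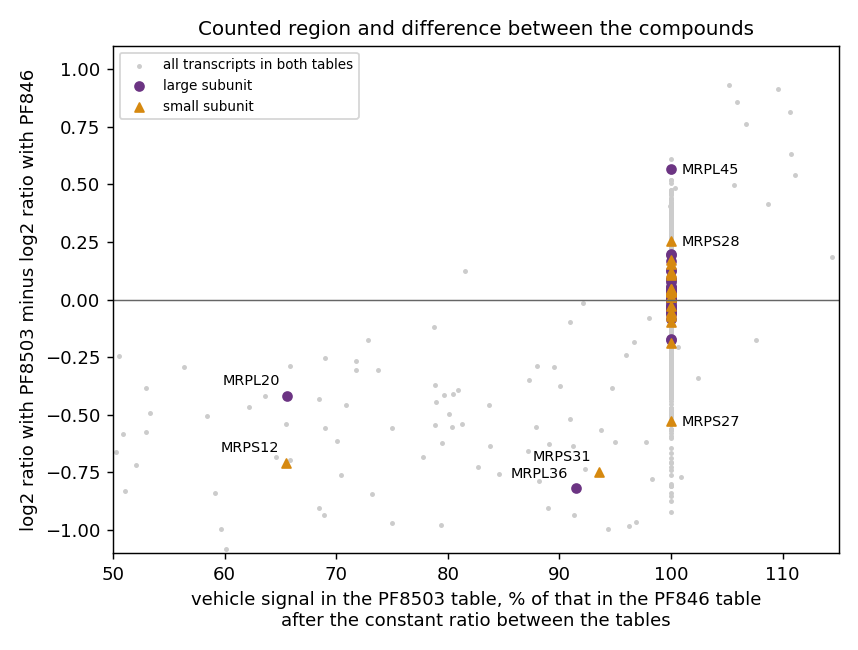
Difference between the log2 ratios of PF8503 and PF846 against the vehicle signal of the PF8503 table as a percentage of that in the PF846 table, after the constant ratio between the tables was removed. Members at 100% had the same codons counted, all transcripts in both tables are in grey, and points beyond the axes are not drawn. MRPL20 and MRPS12 lie near 66%, MRPL36 and MRPS31 above 90%, and MRPS27 and MRPL45 are apart from the other members at 100%. MRPS28, also named, lies at 0.25, close to MRPL17 at 0.20.

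Levels of the members were compared per codon, as the vehicle mean divided by the codons of the coding sequence less 20. In the PF8503 table the median was 4.81 normalized counts per codon over 45 large subunit members and 3.51 over 25 small subunit members, a ratio of 1.37. The levels overlapped widely, with quartiles of 3.15 and 6.06 in the large subunit and 2.90 and 6.53 in the small subunit. These levels include MRPS12, MRPS31, MRPL36 and MRPL20, whose means there cover fewer codons than they were divided by. The ratio was 1.32 in the PF846 table, and in the PF8503 table it was 1.18 when MRPS30 and MRPS18A were counted with the large subunit. All transcripts of the PF8503 table had a median of 0.872, subunits of oxidative phosphorylation 12.7 over 74, and cytosolic ribosomal proteins 73.9 over 76. The mature particle holds a single copy of nearly all of these proteins, but in the PF846 table their footprint levels spanned 20.6-fold in the large subunit and 19.4-fold in the small subunit.

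In the PF846 table, where none of the 70 members in both tables had fewer codons counted than in the PF8503 table, MRPL52 had the highest level of the large subunit at 12.5 normalized counts per codon, followed by MRPL11 at 11.2 and MRPL51 at 10.2. MRPS21 led the small subunit at 14.0, before MRPS16 at 10.3 and MRPS23 at 8.42. The lowest of the large subunit were MRPL45 at 0.608, MRPL15 at 1.06 and MRPL1 at 1.65, and those of the small subunit MRPS31 at 0.724, MRPS36 at 0.856 and MRPS28 at 1.21. MRPL45 and MRPS31, which were low in ratio with PF846 and with PF8503 in turn, were thus also the lowest of their subunits in level. The codons are those of the canonical GENCODE transcript, which may differ from the transcript that the authors counted.

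**Figure D4:**
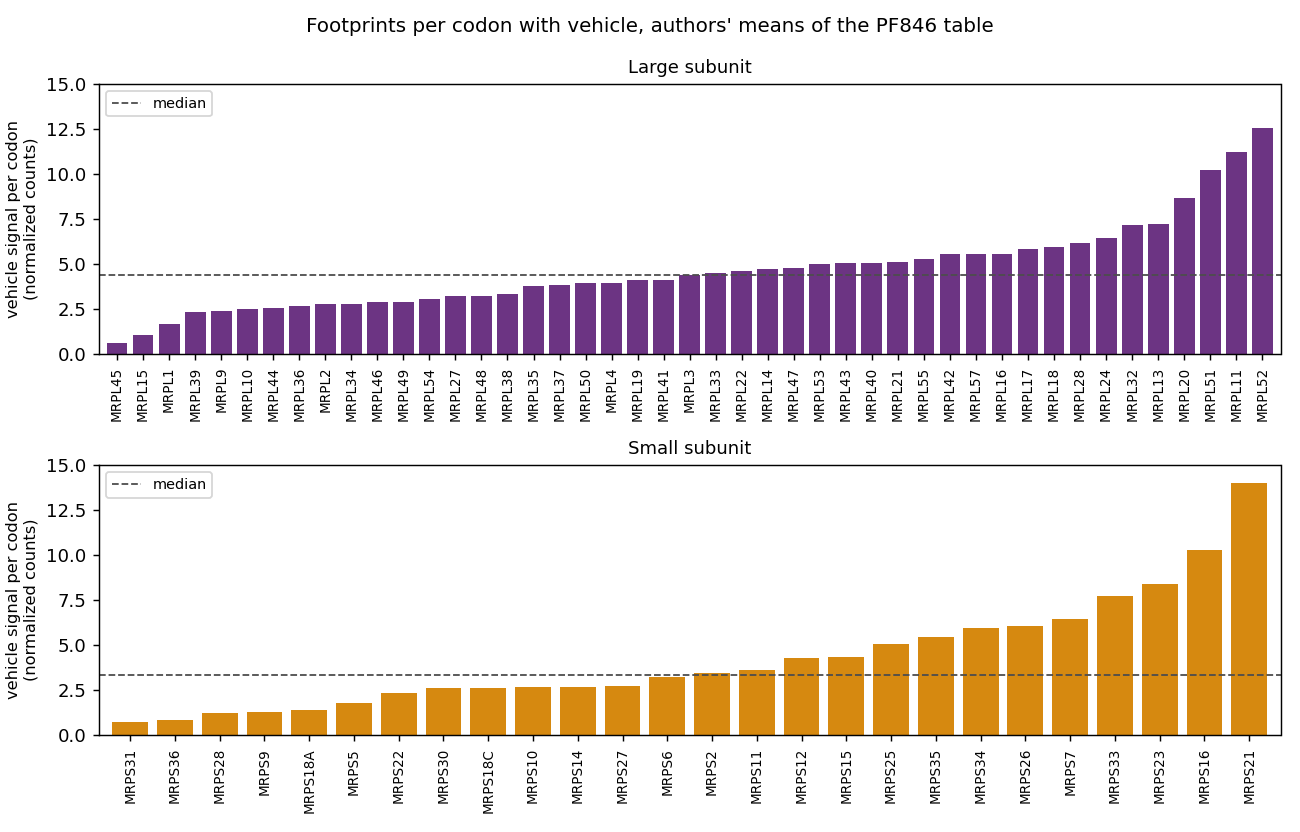
Vehicle signal per codon, in normalized counts, of the large subunit (top) and small subunit (bottom) members in the authors' PF846 table, with the median of each subunit as a dashed line. Levels run from 0.608 for MRPL45 to 12.5 for MRPL52 and from 0.724 for MRPS31 to 14.0 for MRPS21.

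Members with a counterpart in bacterial ribosomes and members specific to mitochondria were compared in a grouping chosen after the values were seen. With PF8503 the median log2 ratio was -0.016 over 39 transcripts of the first kind and -0.0082 over 28 of the second, and with PF846 it was -0.013 and -0.011. MRPL55, MRPS18A, MRPS18C and MRPS36 were not placed in either. Of the 5 members low with PF8503, MRPS12, MRPL36 and MRPL20 are of the first kind and MRPS27 and MRPS31 of the second.

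Across the 66 members counted over the same codons, longer coding sequences went with lower log2 ratios for PF8503 (Pearson's r = -0.40, Spearman's rho = -0.36). Without MRPS27, which has the lowest ratio of these members, the coefficients over 65 were -0.32 and -0.34, and over all 70 members, with those of differing region, they were -0.20 and -0.28. For PF846 the coefficients were -0.12 and -0.096. Over all 8605 such transcripts they were -0.023 and -0.035 with PF8503, and 0.089 and 0.089 with PF846. The arginine share of residues 2 to 30 gave r = 0.20 with PF8503 and 0.14 with PF846. Over the 8579 such transcripts that could be read, r was 0.024 and 0.011. Mean hydropathy of the stretch gave r = -0.16 with PF8503 and -0.15 with PF846 in the members, and 0.063 and -0.040 over the 8579. These coefficients run over transcripts that share the same libraries and are given as a description only.

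For the other nuclear-encoded parts of mitochondrial translation, lists of pathway genes gave the following values, with no test against the members. Over all transcripts, 4.23% were low and 3.79% high at the limit of 0.25 with PF8503. With PF846 these shares were 2.13% and 1.66%. At such shares, lists this short would hold few or no transcripts past the limit. The counts therefore cannot show whether a list differed from all transcripts, which was not tested. Of 6 proteins of the mitochondrial ribosome with other symbols, such as DAP3 and PTCD3, 0 passed the limit with either compound, with medians of 0.036 for PF8503 and -0.063 for PF846. Of 18 translation factors, such as TUFM and GFM1, 0 passed it, with medians of -0.0075 and -0.0023. Among 17 mitochondrial aminoacyl-tRNA synthetases, PARS2, the prolyl enzyme, was at 0.33 with PF8503 and 0.12 with PF846, and the medians were -0.011 and 0.023. Of 25 proteins of presequence import and processing, TIMM17B of the inner membrane channel was at 0.28 and 0.19, and the medians were -0.050 and 0.017.

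Among 24 assembly and rRNA modification factors, 2 were low and 1 was high with PF8503, beside 4.23% and 3.79% of all transcripts, and 0 passed the limit with PF846. Their medians were 0.030 and -0.034. RBFA, which binds the small subunit during its maturation, had means of 265 normalized counts with vehicle and 179 with PF8503, a log2 ratio of -0.57. It was at -0.24 with PF846. TFB1M, which dimethylates the small subunit rRNA, was at -0.30 with PF8503 and -0.062 with PF846. NGRN, needed for the large subunit rRNA, was at 0.37 and -0.024. In these transcripts the same codons were counted in both tables.

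Among the groups most like the members, 5 of 76 cytosolic ribosomal proteins were low and 1 was high with PF8503, and 1 of 75 was low with PF846. Of 74 nuclear-encoded subunits of oxidative phosphorylation, 5 were low and 4 high with PF8503 and 3 low with PF846. Their medians were 0.0026 and 0.016 with PF8503 and 0.0051 and -0.00099 with PF846. The members had 5 low and 0 high of 70 with PF8503, where all transcripts had 4.23% and 3.79%, and 1 low and 1 high of 71 with PF846, where all had 2.13% and 1.66%. Of the low members with PF8503, MRPS12, MRPS31, MRPL36 and MRPL20 had fewer codons counted there. The same codons were counted with both compounds for 66 members, 74 cytosolic ribosomal proteins and 71 subunits of oxidative phosphorylation. The counts of low transcripts are thus not fully alike between the groups, and no difference between them was tested.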

How the data were processed

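Ribosome profiling data were analysed from 9 Huh-7 libraries, 3 each with PF8503, PF846 and vehicle, grouped by their titles. The authors stripped adapters with the FASTX toolkit, discarded reads of ribosomal RNA, and used Bowtie to align what was left to the UCSC set of canonical coding transcripts, from GENCODE version 24 on GRCh38. Reads with more than a single position were dropped. The authors kept transcripts with more than 30 counts over the counted codons and normalized them in DESeq. The versions the authors used of Bowtie and DESeq are not given in the sources used here. Per transcript, the authors deposited signal values, which are means of normalized counts for each condition and for both together. Their columns of fold changes, p-values and adjusted p-values were not used. Replicate numbers in the study's supplementary script do not match those in the labels, and it is uncertain which libraries the means cover. Depth per library is unknown.

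The log2 ratio was computed here from the means, with no pseudocount and no filter. The counted region was compared through the vehicle means. These steps were run on simulated data in which shortened regions were drawn at random, apart from the ratios. A region set at DMax from the same reads that give the ratio was not simulated. Of 9221 symbols, 9178 (99.5%) matched GENCODE version 44 on GRCh38, in part through RefSeq synonyms, and sequences come from its transcripts. The members and lists were chosen with earlier results of these data known. Named genes were the 5 highest and 5 lowest members per compound, those past 0.25, those with the largest differences between compounds, the 3 highest and 3 lowest per codon in each subunit, those with a differing region or in a single table, and MRPS18A, MRPS30 and MRPS36. The pathway genes past 0.25 were also named. Alternatives were limits of 0.15 and 0.5, a minimum mean of 100, a pseudocount of 10, centring on all transcripts, leaving out differing regions, subunit by position and other denominators. Python 3.11.15, numpy 2.4.6, pandas 2.3.3, matplotlib 3.10.9 and biopython 1.88 were used.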

Additional observations from a re-analysis of the deposited data

How the results depend on the processing

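With PF8503, the 5 members past the limit became 10 at a limit of 0.15 (7 lower, 3 higher), 3 at 0.5 and 1, MRPS27, without the members whose counted region differed. With PF846, the 2 became 1, MRPL45, at 0.5 and 1, again MRPL45, without those members. At 0.15 it was 3. Leaving out differing regions kept 66 members with PF8503 and 67 with PF846. For all transcripts, no share past the limit was computed without differing regions. The counts of 1 under that setting therefore have no matching background. The minimum mean, the pseudocount and centring left both counts at 5 and 2. The medians of the log2 ratio, the difference between subunits and the difference between compounds moved by less than 0.05 on the log2 scale under each alternative run for them. The ratio of large to small subunit signal per codon, 1.37, was 1.32 in the PF846 table and 1.18 with subunits by position. No paired analysis was possible because the tables hold means over replicates, and for the same reason no replicate could be left out. The depth of single libraries limits the low-signal members most, but could not be measured.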
